A study of Mus musculus with 24 samples.

Results

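The arrays described here measured RNA of islet-reactive CD4 T cells taken from the pancreas and from the pancreatic lymph nodes of NOD mice with the transgene for the BDC2.5 T cell receptor. The members were the arrays labelled as T cells of BDC2.5/NOD mice from either site, which were 6 of the 24 arrays of the series. Pancreatic T cells had 3 arrays, from mice aged 24, 24 and 25 days, and lymph node T cells had 3 arrays, from mice aged 24, 22 and 25 days. All were untreated, and all mice are labelled as developing a benign insulitis, the infiltration of the islets by leukocytes. Cells were sorted as viable, CD4+ and high for the BDC2.5 clonotype, and the gate for pancreatic cells also required CD45, a marker of all leukocytes. BDC2.5 T cells on the C57Bl/6 background with the H2g7 haplotype (B6g7), which the labels describe with an aggressive insulitis, served for comparison with 2 pancreatic and 2 lymph node arrays, at 25 and 22 days of age for arrays 1 and 2 of either site. RNA of these T cells went through repeated amplification before hybridisation. The labels do not say whether the arrays of a group came from separate mice or from pools, so p-values measure the spread between arrays, which may be technical. That spread was shared over all 24 arrays of the series, other cell types included. Both sites carry the same transgenic receptor, so T cells with other receptors are not represented.

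The BDC2.5 receptor recognises an antigen of pancreatic beta cells presented by the NOD class II molecule. Such cells are first activated in the lymph nodes that drain the pancreas, where dendritic cells present islet antigen. Activated CD4 T cells then lower the receptors that hold them in lymphoid organs, enter the islets and meet the antigen again, where some make chemokines, cytokines and granule proteins and others carry inhibitory receptors.

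The 3 pancreatic arrays were unlike each other, whereas the lymph node arrays were alike. Over all 12422 probe sets, log2 intensities of pairs of pancreatic arrays correlated at 0.82, 0.85 and 0.88 (Pearson's r across probe sets, which are not independent), against 0.98, 0.97 and 0.97 for pairs of lymph node arrays. Pancreatic array 3 correlated at 0.99 with lymph node array 3, more closely than with either other pancreatic array, and at 0.99 with B6g7 lymph node array 2. By these values the array labelled pancreas 3 went with the lymph node arrays rather than with the others of its label, so whether pair 3 compares the 2 sites rests on that label alone. Pancreatic array 1 carried liver transcripts: the mean log2 level of Alb, Fabp1, Apoa2 and Ttr was 11.54 there, 4.98 and 4.47 on pancreatic arrays 2 and 3, and 6.27, 4.38 and 4.42 on the lymph node arrays. The 3 prime minus 5 prime difference of the Gapdh control probe sets, which grows as RNA is shorter, was 3.91, 4.87 and 2.78 on the pancreatic arrays, against 2.93, 3.09 and 3.12 on the lymph node arrays. Pancreatic arrays 1 and 2 thus lay above the lymph node range in this control and pancreatic array 3 below it. The submitters' processing notes name RMA for all 3 pancreatic arrays and for none of the lymph node arrays, so site and any difference in processing cannot be told apart from the notes.

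**Figure D1:**
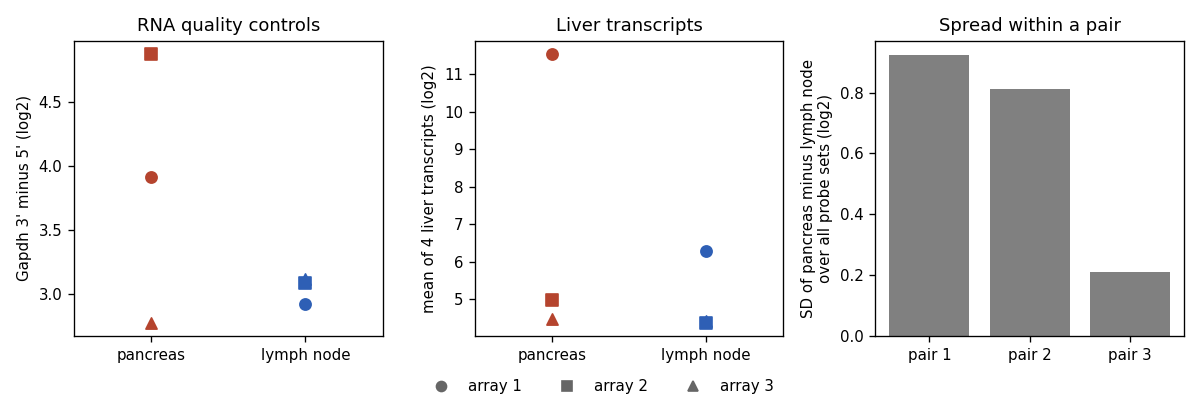
The left and middle plots give, per array, the log2 difference between the 3 prime and 5 prime Gapdh control probe sets and the mean log2 intensity of 4 liver transcripts, with pancreatic arrays in red, lymph node arrays in blue and a marker shape per replicate number. The bars on the right give the standard deviation over all probe sets of pancreas minus lymph node within each same-numbered pair, which was 0.92, 0.81 and 0.21.

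T cell transcripts were present at both sites. Cd4 had log2 intensities of 6.92, 7.44 and 7.39 on pancreatic arrays 1 to 3, against 6.82, 7.80 and 7.72 on the lymph node arrays, and Cd3e, a signalling chain of the receptor complex, had 7.62, 8.39 and 8.14 against 7.51, 7.38 and 7.99. The groups overlapped for both genes. For the 16 measured T cell identity genes the mean ran from 8.01 to 8.39 on pancreatic arrays. On lymph node arrays it ran from 8.47 to 8.55, above every pancreatic array. It was 7.15 and 7.84 on the 2 NOD NK cell arrays. The 2 arrays of NOD splenic leukocytes had 8.09 and 8.34, within the pancreatic range. In this list 6 genes lay above 0 and 10 below in the difference between sites. Cd3g, another chain of the complex, was lower on every pancreatic array, at 9.30, 9.40 and 9.55 against 10.56, 9.98 and 9.74 in lymph nodes.

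Few probe sets passed the test between sites. With limma's moderated test and Benjamini-Hochberg adjustment, 2 of 12422 probe sets had an adjusted p under 0.05 (0.0161%), both lower in the pancreas, while 2263 (18.2%) had an unadjusted p under 0.05, 819 higher and 1444 lower. NOD arrays with the same number at both sites deviated together in every pair, so the numbers were taken to pair the samples. This choice came from the same values that the block then used, so it is no separate support for the blocked counts. With the pair as a block for T cells of both backgrounds, 698 probe sets passed (5.62%), 157 higher and 541 lower. That count rested on the form of the block: 3 passed with terms for the NOD pairs alone, 0 with the 6 arrays fitted by themselves, 0 with either the Gapdh difference or the liver transcripts added as a covariate, and 0 without pair 1 or without pair 2. Without pancreatic array 3, the array most like the lymph node arrays, 1849 passed in the fit without the block, and without pancreatic array 1 or 2 none did (2793 and 1500 at an unadjusted p under 0.05). The genes described in most detail are therefore given with the adjusted p of both fits. Apart from BC147527 and Scg5, the genes named below as passing with the block did not pass without it. The log2 difference between sites is the same in both.

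The pairs differed in how much separated the sites. Of 8251 genes, each read by its brightest probe set, 582 were at least 1 log2 unit higher in the pancreas in pair 1 (7.05%), 322 in pair 2 (3.9%) and 12 in pair 3 (0.145%). At least 1 log2 unit lower were 755 genes in pair 1 (9.15%), 1189 in pair 2 (14.4%) and 2 in pair 3 (0.0242%). Levels on all 3 pancreatic arrays were above all 3 lymph node arrays for 453 genes (5.49%) and below them for 604 (7.32%).

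The genes that were higher on all pancreatic arrays included a chemokine, a granule protease and a calcium-binding protein of effector and memory T cells. Ccl5, a chemokine that memory and effector T cells store and release, had log2 intensities of 8.03, 9.16 and 6.53 on pancreatic arrays 1 to 3, against 5.62, 5.52 and 5.16 on lymph node arrays 1 to 3. The groups did not overlap, and pancreatic array 2 was highest. The difference was 2.47 ± 0.65 (log2, SE), at least 4.67-fold, with an adjusted p of 0.110 in limma's fit without pairs and 0.0256 with the block. In pancreatic cells Gzmb, the cytotoxic serine protease granzyme B, had 7.28, 6.84 and 6.94, against 5.27, 5.44 and 5.90 in lymph node cells. Its 3 pancreatic values lay close together and all stood above the lymph node values. This was a difference of 1.48 ± 0.38 (SE), at least 2.52-fold (adjusted p 0.110 by limma, 0.0450 with the block). S100a6, a small calcium-binding protein that activated cells raise, had 8.07, 6.95 and 6.90 in pancreatic cells, against 5.96, 5.45 and 5.38 in lymph node cells. The difference of 1.71 ± 0.47 (SE) was at least 3.08-fold (adjusted p 0.114 by limma, 0.0414 with the block). Folds are lower bounds where the dimmer group's mean was at or under 5.68 log2 units, the 75th percentile over these 6 arrays of 37 transcripts that T cells should lack. The 37 include the 4 liver transcripts raised on pancreatic array 1, and without them the level was 5.62.

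Ccl5, Gzmb and S100a6 were also higher in the pair whose arrays were nearly alike. They were described above as genes without overlap between sites, so that direction was fixed by the choice and is no separate support. In pair 3 the pancreas minus lymph node difference was 1.51 for S100a6, 1.36 for Ccl5 and 1.04 for Gzmb, which were among the 12 genes at least 1 log2 unit higher. The other 9 included Nrip1, a nuclear receptor corepressor, at 1.73, Klf3, a Kruppel-like repressor, at 1.33, Ccnd2, a D-type cyclin, at 1.16 and Crem, a cAMP-responsive regulator, at 1.11. Nrip1, Klf3 and Ccnd2 were lower in the pancreas in pair 1, at -2.19, -0.86 and -2.12. S100a6, Ccl5 and Gzmb were at least 1 log2 unit higher in pairs 1 and 2 too. With pancreatic array 3 alone set against the lymph node arrays, 1 probe set passed, a second one of Crem (difference 1.37, adjusted p 0.0232 by limma, with the lone array assumed to vary like the other groups).

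**Figure D2:**
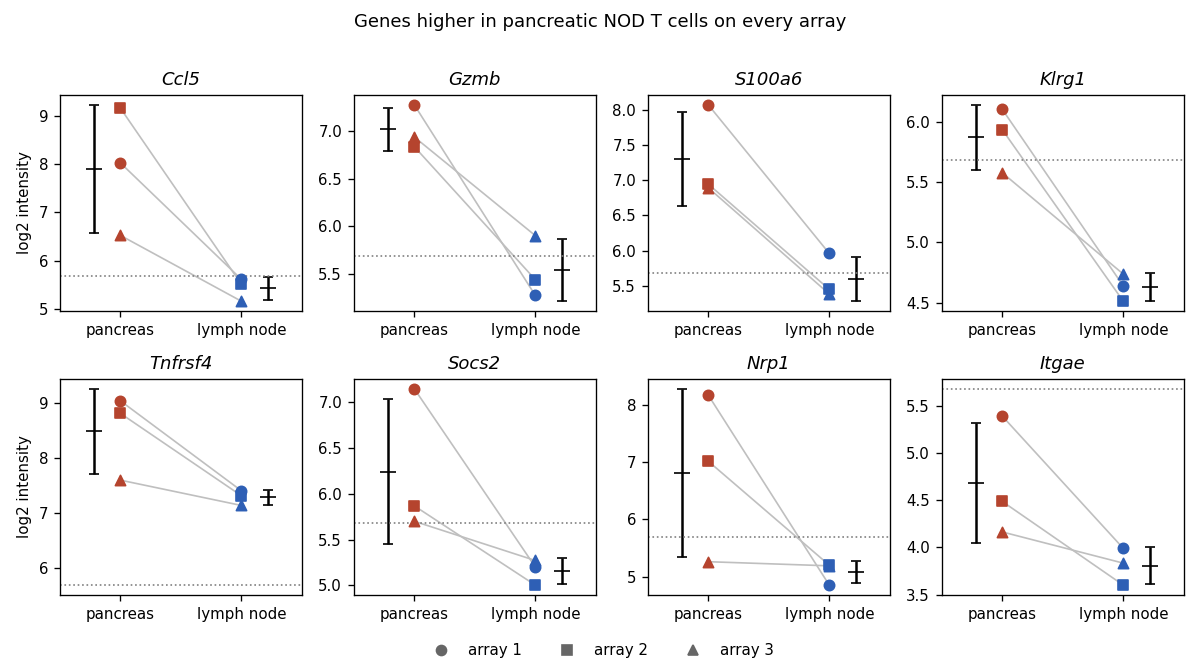
Each panel gives the log2 intensity of 1 gene on the 3 pancreatic arrays (red) and the 3 lymph node arrays (blue), with grey lines joining same-numbered arrays, black bars for the mean and SD, and a dotted line at 5.68, the level that absent transcripts reached. All pancreatic values lie above all lymph node values, and Nrp1, Socs2 and Itgae were highest on pancreatic array 1.

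Promoters of Gzmb and S100a6 are shown because these genes were higher in all 3 pairs. Each sequence is the 250 bases before the gene's start from RefSeq (GRCm38.p6), read 5′ to 3′ on the gene's strand. Capitals mark matches on either strand to TGTGGT, the core bound by RUNX factors, and TGANTCA, the core bound by AP-1. The Gzmb window is chr14:56262335-56262584 (minus strand) and the S100a6 window is chr3:90612644-90612893 (plus strand).
Gzmb: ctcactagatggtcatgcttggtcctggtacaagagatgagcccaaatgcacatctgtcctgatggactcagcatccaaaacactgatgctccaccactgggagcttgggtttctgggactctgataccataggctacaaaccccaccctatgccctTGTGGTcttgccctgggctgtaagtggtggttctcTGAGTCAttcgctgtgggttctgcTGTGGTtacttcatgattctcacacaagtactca
S100a6: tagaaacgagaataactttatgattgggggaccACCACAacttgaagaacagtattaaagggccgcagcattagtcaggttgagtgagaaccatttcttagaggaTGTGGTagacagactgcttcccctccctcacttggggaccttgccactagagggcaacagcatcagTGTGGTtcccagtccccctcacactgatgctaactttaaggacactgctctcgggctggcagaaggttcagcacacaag
The Gzmb window held 2 matches to TGTGGT and 1 to TGANTCA, and the S100a6 window held 3 and 0. Of 32851 promoter windows of the same length, 4614 held TGTGGT and 2217 held TGANTCA on either strand. Matches to the 2 motifs do not overlap in these windows.

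Receptors and signalling regulators that restrain or mark antigen-experienced T cells formed a dim list, with array means from 5.13 to 5.48 in pancreatic cells and from 4.92 to 4.99 in lymph node cells. Of 21 measured genes of the inhibitory and regulatory list, 18 lay above 0, with a median difference of 0.29, beside 58.3% of all genes above 0 with a median of 0.06. Of the 37 absent transcripts 35 lay above 0, with a median of 0.25. Their pair medians were 0.06, 0.56 and 0.02, beside 0.18, 0.41 and 0.07 for the list. With the block 6 passed, all higher, and in the fit without pairs none did. Among all genes 1.39% passed as higher with the block. Klrg1, an inhibitory lectin receptor of antigen-experienced lymphocytes, had 6.11, 5.94 and 5.58 in pancreatic cells, against 4.64, 4.51 and 4.74 in lymph node cells. Its difference was 1.25 ± 0.32 (SE; adjusted p 0.110 by limma, 0.0419 with the block), and its levels lay near that of absent transcripts. Socs2, which restrains cytokine receptors that signal through STAT5, had 7.15, 5.87 and 5.70 in pancreatic cells, against 5.20, 5.004 and 5.27 in lymph node cells (1.08 ± 0.26, SE; adjusted p 0.110 by limma, 0.0329 with the block). Pancreatic array 1 was the highest for both. Nrp1, a semaphorin receptor carried by regulatory T cells and also by endothelium, had 8.17, 7.01 and 5.26 in pancreatic cells, against 4.85, 5.20 and 5.19 in lymph node cells. Its pancreatic values followed the order of the arrays' liver transcripts, and array 3 lay within 0.07 of its lymph node partner. Lymph node array 1 had more liver transcript than pancreatic array 2 (6.27 against 4.98) and less Nrp1. The part of liver RNA in Nrp1 was not tested. A second Nrp1 probe set had 5.09, 3.36 and 3.08 in pancreatic cells, against 3.31, 3.32 and 3.26 in lymph node cells, which overlapped.

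Some of these genes were near the limit of the arrays. Il10, the regulatory cytokine, had 4.91, 4.92 and 4.91 in pancreatic cells, against 4.20, 4.27 and 4.49 in lymph node cells. These levels did not overlap, with a difference of 0.59 ± 0.12 (SE; adjusted p 0.0912 by limma, 0.0378 with the block), but both groups lay under the absent level, so no fold is given. Cish, another cytokine signalling suppressor, differed by 0.45 and also passed with the block. Pdcd1, which encodes the inhibitory receptor PD-1, had 6.50, 7.33 and 5.81 in pancreatic cells, against 5.68, 5.96 and 5.78 in lymph node cells. The groups overlapped (0.74 ± 0.24, SE; adjusted p 0.140 by limma, 0.0425 with the block), and pair 3 differed by 0.02. Ctla4, an inhibitory receptor of activated and regulatory T cells, went the other way, at 6.04, 4.20 and 5.27 in pancreatic cells, against 6.30, 5.28 and 5.49 in lymph node cells, without passing.

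Of 19 measured activation genes, Tnfrsf4 was the one that passed with the block, beside 1.39% of all genes as higher. None passed without the block. Tnfrsf4 encodes the costimulatory receptor OX40 and had 9.05, 8.82 and 7.60 in pancreatic cells, against 7.41, 7.31 and 7.14 in lymph node cells. The groups did not overlap, and array 3 was the lowest pancreatic array. The difference of 1.20 ± 0.28 (SE) was 2.30-fold (adjusted p 0.110 by limma, 0.0291 with the block). Il2ra, the high-affinity interleukin 2 receptor chain, was at 4.01, 4.42 and 4.03 against 3.92, 3.94 and 3.82, Cd44 differed by -0.21 and Icos by 0.09 (-0.01 with quantile normalization), all with both groups under the absent level. The list's median was 0.12, beside 0.06 for all genes and 0.25 for the absent transcripts.

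Among genes for homing and tissue residence, Itgae, the integrin chain that binds epithelial cadherin, had 5.39, 4.49 and 4.16 in pancreatic cells, against 3.99, 3.60 and 3.83 in lymph node cells. It was higher on every pancreatic array (0.87 ± 0.24, SE; adjusted p 0.114 by limma, 0.0359 with the block), with both group means under the absent level. A second probe set of Itgae gave 0.93. Of 21 measured annexin, S100 and effector migration genes 18 lay above 0 (median 0.27), beside 58.3% of all genes and 35 of 37 absent transcripts (median 0.25). S100a6 and Lgals1 passed as higher with the block, as did 1.39% of all genes. Lgals1, the secreted lectin galectin 1, had 9.68, 10.61 and 7.36 in pancreatic cells, against 7.66, 7.79 and 6.85 in lymph node cells, so pancreatic array 3 overlapped the lymph node range (1.79 ± 0.62, SE; adjusted p 0.148 by limma, 0.0383 with the block). S100a4, a relative of S100a6, was higher on every pancreatic array by 0.85 on average. Anxa5 in the same list was lower on every pancreatic array, at -1.18.

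Of 25 measured chemokines 20 lay above 0, beside 58.3% of all genes, with a median of 0.14 that was below the 0.25 of the absent transcripts. The list's array means, from 4.64 to 5.05 in pancreatic cells and from 4.42 to 4.55 in lymph node cells, were all under the absent level. Ccl5 and Ccl1 passed as higher with the block, beside 1.39% of all genes. Ccl1, made by activated T cells, had 6.91, 7.03 and 5.86 in pancreatic cells, against 5.16, 5.70 and 5.89 in lymph node cells, which overlapped. A second Ccl1 probe set, under the absent level, differed by 0.14. Chemokine receptors showed no call in 18 measured genes. Cxcr3, the receptor for interferon-induced chemokines, had 7.10, 7.82 and 6.20 in pancreatic cells, against 6.82, 6.92 and 6.65 in lymph node cells, so the pancreatic arrays lay on both sides. Of 17 cytotoxic granule and death ligand genes 13 lay above 0, with a median of 0.12 that was also below that of the absent transcripts, and Gzmb alone passed with the block (1.39% of all genes did as higher). Gzmk was also higher on every pancreatic array, by 0.49 on average.

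The cytokines of helper T cells were dim. Ifng had 3.99, 4.63 and 3.73 in pancreatic cells, against 3.47, 3.26 and 3.48 in lymph node cells, higher on every array but under the absent level in both groups. Il2 differed by 0.28 at levels as low. Tnf, at 6.70, 7.15 and 7.41 against 6.95, 7.18 and 7.34, differed by -0.07, or by 0.08 with quantile normalization. Il16, a CD4 ligand, was lower on every pancreatic array, at 7.09, 6.59 and 7.30 against 8.30, 7.71 and 7.88 in lymph nodes. It differed by -0.97 (adjusted p 0.0835 by limma, 0.0242 with the block). Of 16 helper cytokine genes Il16 alone passed with the block, while 5.27% of all genes passed as lower.

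Of the probe sets that fell in the fit without pairs, one was above the absent level in lymph node cells and the other was not. BC147527 had log2 intensities of 5.44, 5.48 and 5.80 in pancreatic cells, against 7.17, 7.11 and 6.40 in lymph node cells, without overlap. It fell by 1.32 (SE 0.19, adjusted p 0.0331 by limma, 0.0242 with the block), at least 2.32-fold, and its probe set is of a kind marked by the manufacturer as reading a family of transcripts, so related genes may share the signal. Scg5, a secretory granule chaperone of neuroendocrine cells, had 3.65, 3.77 and 3.81 in pancreatic cells, against 4.75, 4.93 and 4.28 in lymph node cells (fell by 0.91, SE 0.14, adjusted p 0.0380 by limma, 0.0242 with the block), all under the absent level. Neither passed without pancreatic array 1 (adjusted p 0.144 for both by limma).

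The apoptosis list was balanced between the sites, with 11 of 22 genes on each side of 0, and 3 of its members passed as lower with the block, beside 5.27% of all genes. Bcl2, the founding inhibitor of mitochondrial apoptosis, had 6.75, 6.74 and 7.82 in pancreatic cells, against 8.35, 9.16 and 8.02 in lymph node cells. The groups did not overlap, and the pair 3 difference was -0.20, against -1.60 and -2.41 in pairs 1 and 2 (-1.40 ± 0.38, SE; adjusted p 0.114 by limma, 0.0447 with the block). A second Bcl2 probe set gave -1.49 and another 0.07. Mcl1, another inhibitor of the same family, had 7.76, 6.75 and 7.99 in pancreatic cells, against 8.77, 8.37 and 8.42 in lymph node cells (-1.02 ± 0.24, SE; adjusted p 0.110 by limma, 0.0291 with the block). Casp8, an initiator caspase, also passed with the block, at -0.91. Btg1 and Btg2, antiproliferative genes of resting lymphocytes, differed by -1.41 and -1.28 and passed with the block. Btg1 had 8.64, 7.12 and 9.26 in pancreatic cells, against 10.07, 9.31 and 9.86 in lymph node cells. They were the passing members among 28 immediate early and stress genes, whose median of -0.36 became 0.01 without pancreatic array 1. Birc2 and Birc3, ubiquitin ligases of NF-kB signalling, differed by -1.46 and -0.72 and passed with the block. A second Birc2 probe set, under the absent level, gave -0.11.

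**Figure D3:**
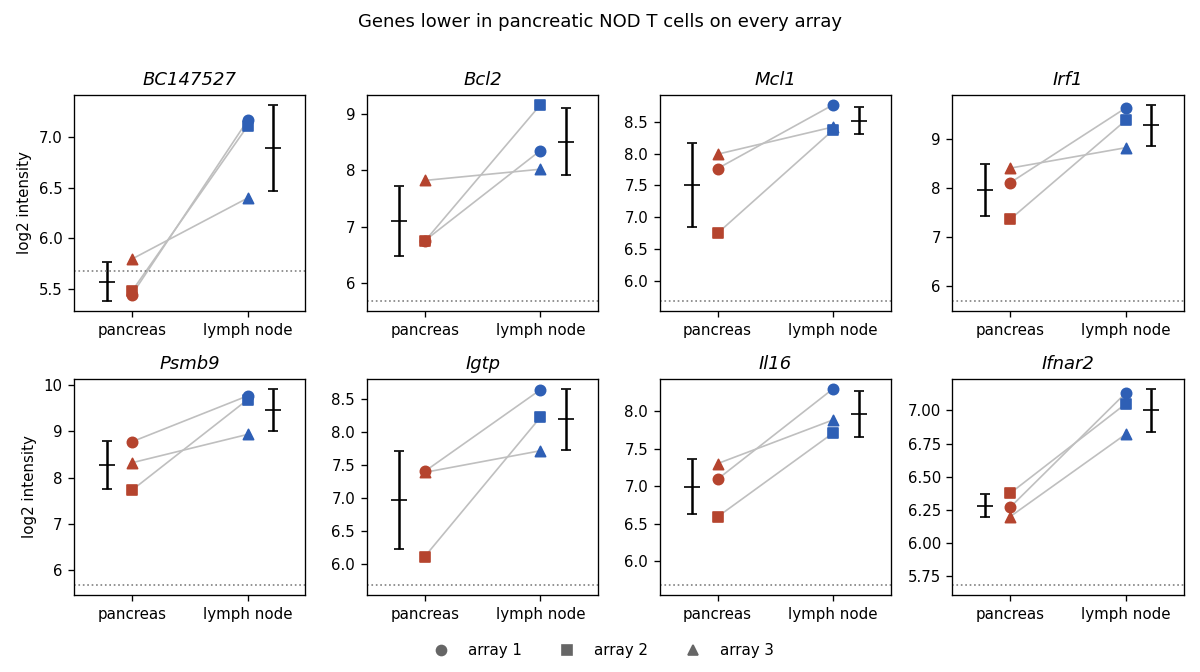
Each panel gives the log2 intensity of 1 gene on the 3 pancreatic arrays (red) and the 3 lymph node arrays (blue), with grey lines joining same-numbered arrays, black bars for the mean and SD, and a dotted line at 5.68, the level that absent transcripts reached. Every pancreatic value lies below every lymph node value, and pancreatic array 3 lies nearest to the lymph node arrays for Bcl2 and Mcl1.

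Interferon-induced genes were mostly lower on average in pancreatic cells, but the array means of the lists overlapped between sites. Of 23 measured interferon-gamma response genes 17 lay below 0, with a median of -0.43, and of 23 type I interferon response genes 18 did, with a median of -0.37, while 41.7% of all genes lay below 0. With the block 3 of each list passed as lower, beside 5.27% of all genes, and Ly6e passed as higher, at 1.12, with a second probe set at 0.04. Irf1, a transcription factor induced by interferons, had 8.11, 7.36 and 8.41 in pancreatic cells, against 9.65, 9.39 and 8.83 in lymph node cells (-1.33 ± 0.34, SE; adjusted p 0.110 by limma, 0.0414 with the block). Psmb9, an interferon-induced proteasome subunit, had 8.78, 7.73 and 8.32 in pancreatic cells, against 9.77, 9.69 and 8.93 in lymph node cells (-1.19 ± 0.28, SE; adjusted p 0.110 by limma, 0.0391 with the block). The groups did not overlap for either gene, and the difference in pair 3 was -0.42 and -0.61. Igtp, an interferon-inducible GTPase, differed by -1.23. In the type I list Trim30a differed by -1.51, Ifi204 by -0.98 and Irf9, a subunit of the factor that type I interferon activates, by -0.88. Other probe sets of Trim30a and Ifi204 gave 0.23, 0.23 and 0.20. These lay under the absent level on every array of both sites, so their direction says little. Ifnar2, a chain of the type I interferon receptor, had 6.27, 6.38 and 6.20 in pancreatic cells, against 7.13, 7.05 and 6.82 in lymph nodes. It differed by -0.72 (adjusted p 0.110 by limma, 0.0340 with the block). A second Ifnar2 probe set, under the absent level, gave 0.21. The list medians by pair were -0.47, -0.63 and -0.05 for the interferon-gamma list and -0.22, -1.11 and 0.00 for the type I list.

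Genes of naive and recirculating T cells gave no call. Of 13 measured members 9 lay below 0, with a median of -0.46, and the medians by pair were -0.74, -0.53 and 0.00. Ccr7, the receptor that guides T cells into lymph nodes, had 5.80, 5.52 and 5.75 in pancreatic cells, against 6.54, 6.28 and 5.98 in lymph node cells. These did not overlap (-0.57, adjusted p 0.300 by limma, 0.242 with the block). Il7r, the interleukin 7 receptor of resting T cells, had 6.19, 6.39 and 7.81 in pancreatic cells, against 7.21, 7.37 and 7.80 in lymph node cells. Klf2, a factor that maintains recirculation, differed by 0.06 and its target S1pr1, the receptor for lymph node exit, by -0.11 at levels under the absent level. Gata3, a factor of T helper 2 cells, differed by -0.62 and Itgb1, an integrin chain, by -0.35, with overlapping groups. Cd69, Tbx21 and Cxcr6 had no probe set of their own among those named here.

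The genes furthest apart with the block were mixed in kind. The 15 with the largest negative differences among those passing without overlap ran from -1.69 to -2.33 and included Hnrnph3, an RNA-binding protein, with 5.16, 5.23 and 7.45 in pancreatic cells, against 8.38, 8.37 and 8.06 in lymph node cells. Pancreatic arrays 1 and 2 were far lower than array 3 for this gene. The list also held Kmt2a, a histone methyltransferase (-1.80), Dusp6, a phosphatase of ERK (-1.73), Dnajc7 and Cct4, which help proteins fold (-1.69 each), and Trim59 (-2.19). A second Dusp6 probe set, under the absent level, gave 0.17, and a second Kmt2a probe set, above that level, gave -0.04. The 15 with the largest positive differences held, beside the immune genes above, several that hepatocytes express, and these were highest on the array with liver transcripts. Abcb4, a hepatocyte phospholipid transporter, had 7.78, 5.62 and 4.89 in pancreatic cells, against 4.27, 4.61 and 4.66 in lymph node cells. Gjb2, a gap junction protein, had 8.92, 5.79 and 5.23 against 5.02, 4.66 and 4.73, and Ces1g, Stard10, Cideb and Cmtm8 were likewise highest on pancreatic array 1. The part of liver RNA in these results was not tested.

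Metabolic and growth lists held few calls with the block. Of 53 oxidative phosphorylation genes 33 lay above 0 (median 0.16), near the 58.3% of all genes. Atp5d, Cox6a1 and Uqcrq, subunits of the ATP synthase and of the respiratory chain, passed as higher, at 1.11, 1.12 and 1.15, beside 1.39% of all genes. Of 4 other Atp5d probe sets, some lay near 0, at 0.03 and 0.13, and some near the first, at 0.85 and 1.11. The median was -0.14 without pancreatic array 1. Of 21 glycolysis and hypoxia genes 2 passed as lower, Pfkp, a phosphofructokinase, at -1.02 and Ddit4, an inhibitor of mTOR signalling, at -2.04, beside 5.27% of all genes. No cell cycle and replication gene of 49 passed (median -0.06), and 3 of 33 cytosolic ribosomal protein genes passed as lower, beside the same 5.27%, with a median of -0.01. For sterol synthesis the 21 genes had a median of 0.23, which was 0.03 without pancreatic array 1. The lists of lineage transcription factors, cytokine receptors, integrins and adhesion, NF-kB and TGF-beta genes had medians between -0.02 and 0.13.

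**Figure D4:**
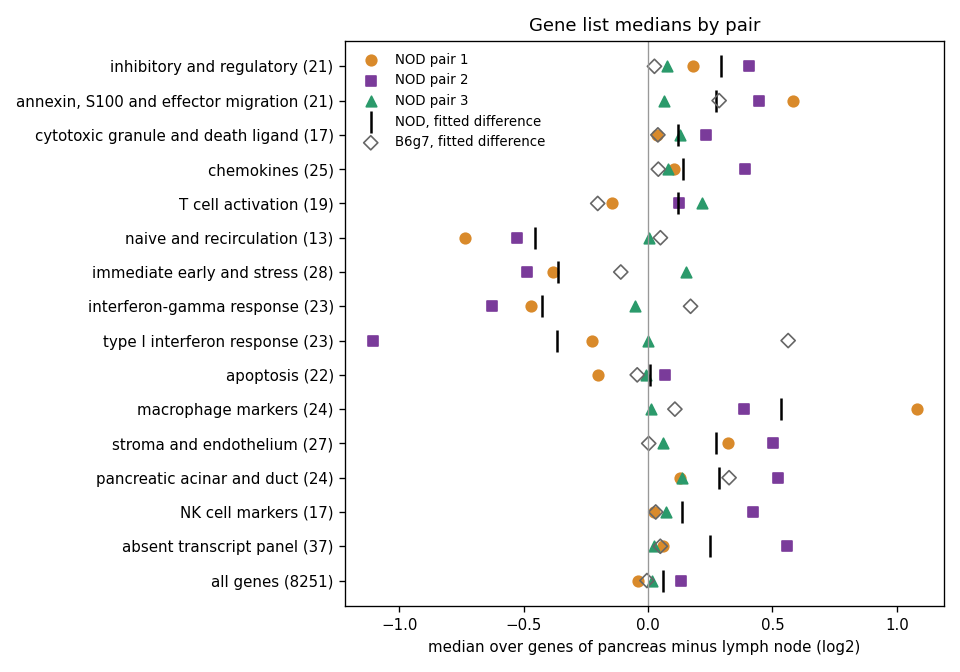
Each row gives the median over the measured genes of a list (their number in brackets) of the pancreas minus lymph node log2 difference, for NOD pairs 1, 2 and 3 (filled markers), for the fitted NOD difference (black bar) and for the fitted B6g7 difference (open diamond). Pair 3 lies within 0.22 of 0 for every list shown, and the absent transcript panel lies at 0.56 in pair 2.

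Markers of other cells were read against transcripts that T cells should lack. The median difference of 0.25 among these absent transcripts, and of 0.56 in pair 2, means that dim probe sets as a class read higher on pancreatic array 2. Without the liver genes of this panel the medians were 0.20 and 0.56. Of 24 measured macrophage markers 23 lay above 0, with a median of 0.53 and pair medians of 1.08, 0.39 and 0.01. The mean of the list ran from 4.87 to 6.18 on pancreatic arrays and from 4.73 to 4.87 on lymph node arrays, against 6.52 to 7.60 on the NOD infiltrate arrays. Apoe, which macrophages and hepatocytes express, had 12.93 on pancreatic array 1 and 5.79 and 5.11 on the others, against 7.10, 5.36 and 4.96 in lymph node cells. Csf1r, the receptor that defines macrophages, had 7.10, 6.18 and 5.54 in pancreatic cells, against 5.58, 5.50 and 5.84 in lymph node cells. Their part in the results was not tested. In bulk RNA, more cells of a type and more RNA per cell cannot be told apart.

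Lists of pancreatic tissue and NK cell genes had medians near or below that of the absent transcripts. Of 24 acinar and duct genes 23 lay above 0 (median 0.28) and 2 passed as higher with the block, Cela2a and Krt8, beside 58.3% and 1.39% of all genes and the absent panel's median of 0.25. Cela2a, a pancreatic elastase, had 5.89, 6.62 and 5.92 in pancreatic cells, against 5.48, 5.58 and 5.69 in lymph node cells, close to the absent level. Of 14 islet genes 8 lay above 0 (median 0.05). Of 27 stroma and endothelium genes 26 lay above 0, with a median of 0.27, which is near that of the absent panel. Their pair medians were 0.32, 0.50 and 0.06, beside 0.06, 0.56 and 0.02 for the absent panel. Higher without overlap were 7 of these genes and 7 of the 24 acinar and duct genes. The same held for 5.49% of all genes and 2 of the 37 absent transcripts. The source of these transcripts was not tested. The 17 NK cell markers all lay above 0 with a median of 0.14, below that of the absent panel, and their mean ran from 4.69 to 5.13 on pancreatic arrays, against 6.60 and 6.75 on NOD NK arrays. B cell markers had a median of 0.05, with the mean of the list between 5.21 and 5.29 on pancreatic arrays and between 5.24 and 5.34 on lymph node arrays. Granulocyte, dendritic cell, erythroid, CD8 and thymocyte, class II presentation, and mast cell and platelet lists had medians between 0.02 and 0.31. In the class II list Ctss passed as lower with the block, beside 5.27% of all genes.

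The same contrast in B6g7 T cells, which shares no array with the NOD contrast, gave no call. None of 12422 probe sets passed (0.0%), and 81 (0.652%) had an unadjusted p under 0.05 by limma. B6g7 pancreatic array 1 and lymph node array 1 both carried liver transcripts, with means of 10.06 and 9.55, so these were present on both sides of that pair. S100a6 was higher in the pancreas by 1.15 and 0.60 in B6g7 pairs 1 and 2, Gzmb by 0.67 and 0.66, and Ccl5 by 0.24 and 1.21. The fitted B6g7 differences were 0.87 ± 0.58 for S100a6, 0.66 ± 0.46 for Gzmb and 0.72 ± 0.80 for Ccl5 (SE), each smaller than in NOD but not shown to differ from it (adjusted p 0.999 for the interaction by limma for each).

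The medians of the interferon lists had opposite signs in the 2 backgrounds, and the B6g7 pairs differed in this. In B6g7 T cells the type I interferon list had 20 of 23 genes above 0 and a median of 0.56, beside -0.37 in NOD. The interferon-gamma list had 17 of 23 above 0 and a median of 0.17, beside -0.43 in NOD. Most of this lay in B6g7 pair 1. The mean of the type I list was 6.97 on pancreatic array 1, against 5.84 on lymph node array 1, and 6.23 on pancreatic array 2, against 6.07 on lymph node array 2. The interferon-gamma list had means of 7.58 and 7.56 on B6g7 pancreatic arrays 1 and 2, against 7.18 and 7.62 on B6g7 lymph node arrays 1 and 2, so it was lower in the pancreas in pair 2. The test of the difference between site effects, fitted over all probe sets, gave no call (0.0%), with 351 (2.83%) at an unadjusted p under 0.05, so no single gene of these lists was shown to differ. The 5 smallest p in each direction belonged, on the negative side, to BC147527, Scg5, Igtp, Maf1 and Ezh1 and, on the positive side, to Gstm3, Irf8, Foxa1, Nefh and Myh7. Igtp differed by -1.23 in NOD and 0.91 in B6g7, an interaction of -2.13 ± 0.55 (SE). Irf8, an interferon regulatory factor of myeloid and lymphoid cells, had 8.39, 9.15 and 7.88 in NOD pancreatic cells, against 8.12, 7.74 and 7.65 in NOD lymph node cells. Its site difference was 0.64 in NOD and -0.85 in B6g7, an interaction of 1.49 ± 0.43 (SE).

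**Figure D5:**
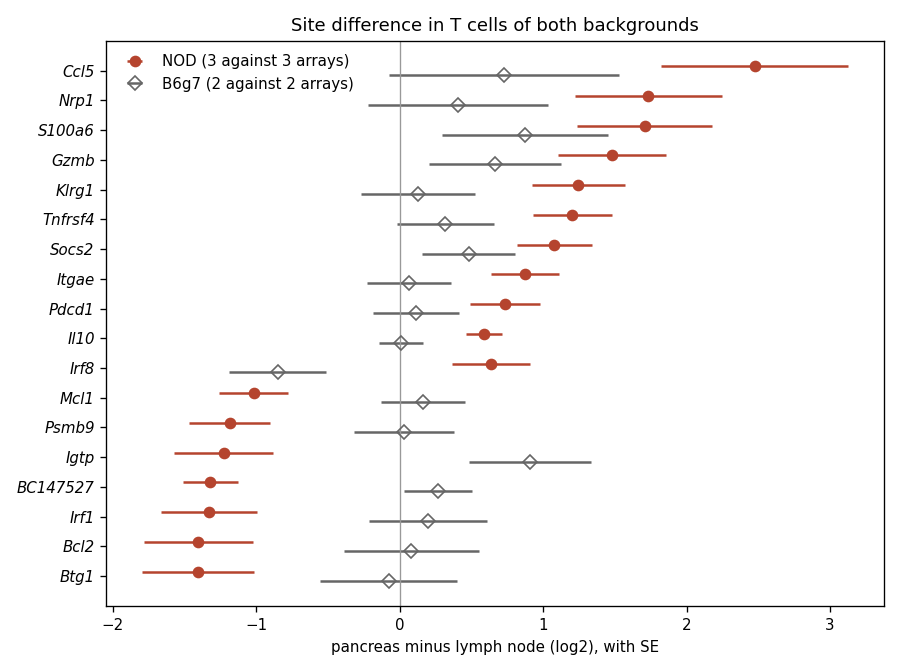
Points give the fitted pancreas minus lymph node log2 difference of 18 genes with its standard error, for NOD T cells (red circles) and B6g7 T cells (open diamonds). Ccl5, S100a6 and Gzmb lie above 0 in both backgrounds, while Irf8 and Igtp lie on opposite sides of 0.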

How the data were processed

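RNA of sorted T cells was hybridised to oligonucleotide arrays, and the authors deposited linear probe set intensity, 1 value per probe set and array. The submitters' processing notes name RMA, without version or settings, on 11 of the 24 arrays, and the notes of the remaining 13 name no method. The median intensity of the 6 NOD T cell arrays ran from 35.1 to 37.9, and their number limits the precision. The smallest value was 5.70, so log2 was taken with no pseudocount. After leaving out 66 controls, 12422 probe sets were tested. Names came from the platform annotation, updated through Entrez identifiers against RefSeq (GRCm38.p6): 10833 had 1 gene, 396 several and 1193 none. Each of 8251 genes was read by its brightest probe set on average over the arrays.

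A mean per group was fitted to all 24 arrays in 10 groups with limma 3.58.1 in R 4.3.3 (lmFit, eBayes, 14 residual degrees of freedom), two-sided, with Benjamini-Hochberg adjustment and a threshold of 0.05. The code was tested on simulated data. Same-numbered NOD pancreatic and lymph node arrays had deviations from their group means that correlated at 0.34, 0.36 and 0.29, all over 0.1. The numbers were therefore taken as pairs, and B6g7 arrays were paired by number without this check. Deviations cancel within a group, so the 3 correlations are not independent. The ages in NOD pair 2 differ (24 and 22 days). Named genes were the 15 largest rises and falls among passing genes without overlap, up to 4 passing members of each of 36 lists, a panel of 26 genes of which 21 were measured, and the 5 smallest interaction p in each direction. The rule was also applied to the blocked fit, and this, the genes of pair 3, and members named for not overlapping or for their part in a cell type were chosen after their values were seen. The arrays and lists were chosen with earlier results of these data known. Alternatives were other normalizations, filters, priors, weights, covariates, blocks and arrays left out.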

Additional observations from a re-analysis of the deposited data

Results flagged for a closer look

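For 6 of the genes given by name, all 3 NOD pairs went one way and both B6g7 pairs the other. The NOD minus B6g7 site effect (log2) was -2.13 for Igtp, -1.29 for Maf1, -0.76 for Ezh1, 1.49 for Irf8, 0.80 for Foxa1 and 0.61 for Myh7. These 6 were named for the smallest interaction p, so their direction was fixed by that choice and is no sign of stability. The limma interaction passed for none of them after adjustment over all probe sets. Foxa1 lay under the level of absent transcripts in NOD cells of both sites.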

How the results depend on the processing

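The count of 2 probe sets between NOD sites was 3 with quantile normalization, 4 with array median centring, 4 with a trended robust prior and 1 without the 40% dimmest probe sets. It was 0 with array weights, with the Gapdh or the liver covariate, without splenic leukocytes and with only the compared groups. With the replicate block it was 698 over all 24 arrays, 563 with a trended robust prior, 241 with quantile normalization, 3 with NOD pairs only, 2648 without pair 3, and 0 without pair 1, without pair 2, with the compared groups only, or with the liver covariate, the Gapdh covariate or array weights added. Leaving out 1 array or 1 pair at a time gave 0 to 1849. The 1849 came without pancreatic array 3, and lymph node array 3 left out gave 36 and pair 3 left out 1517, while B6g7 arrays left out gave 1 to 5. Pancreatic array 3 alone gave 1. The B6g7 count of 0 became 1 with the replicate block in the compared groups only or without NOD pair 3. The interaction count of 0 became 179 with the block without pair 3, and ran from 0 to 4 over arrays and pairs left out. These B6g7 and interaction counts were 0 in the fit with the block over all arrays. The cause of these changes was not tested.

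Both called genes stayed lower in every alternative that tested them, and neither passed where the count was 0. Over 31 alternatives, Ccl5 stayed between 1.09 and 3.16, Gzmb between 1.22 and 1.70 and S100a6 between 1.30 and 1.91. The medians of both interferon lists stayed negative in all 31. That of the inhibitory and regulatory list stayed positive, from 0.09 to 0.45, as did that of the absent transcripts, from 0.07 to 0.33. The naive list was 0.01 with the Gapdh covariate and 0.11 for pancreatic array 3 alone. Other list medians changed sign too, not only those near 0. With arrays or pairs left out, the erythroid median of 0.31 went as low as -0.03 and the oxidative phosphorylation median of 0.16 as low as -0.14. The immediate early and stress median of -0.36 went as high as 0.01, and the glycolysis and hypoxia median of -0.14 as high as 0.15. Signs turned for uncalled genes. Cxcr3 was -0.26 with array weights, -0.035 with the Gapdh covariate (-0.050 with the block), -0.083 with the block without pair 2, -0.60 for pancreatic array 3 alone and -0.14 to 0.67 with arrays left out. Il7r was 0.15 with the Gapdh covariate, with and without the block, and 0.34 for pancreatic array 3 alone. For that array alone Gata3 was 0.21, Lgals1 -0.075 and Pdcd1 -0.0037. Icos was -0.010 with quantile normalization, with and without the block. S1pr1 was 0.30 with array weights, 0.15 with the Gapdh covariate, 0.073 with the liver covariate (0.15 with the block), 0.13 with the block without pair 1, 0.40 for pancreatic array 3 alone and -0.36 to 0.13 with arrays left out. Tnf was 0.076 with quantile normalization (with and without the block), 0.079 with array weights, 0.10 with the liver covariate, 0.019 with the block without pair 1, 0.25 for pancreatic array 3 alone and -0.23 to 0.12 with arrays left out. Klf2 ran from -0.0038, without pancreatic array 2, to 0.16 with arrays left out. Probe sets at or under the absent level give no fold, which limits Il10, Itgae, Ifng, Il2ra and Scg5.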
